A study of Mus musculus with 104 samples.

Results

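The forkhead genes are the transcription factor family whose mouse symbols read Fox, a letter from a to s and a number. Of 44 such genes in the RefSeq gene table, 37 were measured here among 18193 genes in all. Each was represented by its brightest probe set that carried a single gene symbol, meaning the probe set with the highest mean over all arrays. The other 7 were not analysed here.

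Forkhead proteins bind DNA through a winged-helix domain and take part in setting up and keeping cell identity. In the brain, the FoxP proteins are known from striatal medium spiny neurons, the FoxA proteins from midbrain dopamine neurons, and FoxJ1 from cells with motile cilia. FoxO proteins are held out of the nucleus by insulin and IGF signalling, and FoxC, FoxD and FoxF proteins are known from the fibroblasts and vessel walls around the brain.

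RNA came from 52 dissected regions of brain, spinal cord, pituitary, pineal gland and retina of male Balb/c mice of 7 to 8 weeks, with 2 Affymetrix arrays per region. The series centres on a piece of preoptic area and basal forebrain (POA/BF) punched from slices. Every array held RNA pooled over 6 time points spaced by 4 hours. The mice had been kept with 12 hours light and 12 hours dark and were sampled in that cycle or in constant darkness, and the labels do not say which regions came from which condition. No group was genetically altered or treated. The groups of this report are the regions themselves, and an array of a region is its replicate. The labels state independent sampling of each region but not separate animals, so each p reflects the spread between these arrays. In pieces of tissue, fewer cells of a type and less RNA per cell cannot be told apart.

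The values were on the log2 scale, and array medians ran from 7.33 to 7.46. Between the arrays of the same region, Pearson r across genes lay between 0.972, in the retina, and 0.998. The labels were checked with genes chosen after their values were seen. Slc6a3, the dopamine transporter, averaged 12.45 in the ventral tegmental area and 12.5 in the substantia nigra, against a median of 6.49 over all regions. Other labels went against such genes. The retina arrays held Gh, the growth hormone gene, at 14.69, beside 14.7 in the pituitary, and Pomc at 13.59. Pmch, the marker of lateral hypothalamic neurons, read 7.7 in the region labelled lateral hypothalamus and 13.98 in the dorsomedial nucleus. Apart from these mismatches, ependymal genes were highest in the medial preoptic area, which does not by itself go against that label. Control spikes for hybridisation split the regions into 21 low (up to 10.49) and 30 high (from 10.84). The 64 control probe sets of POA/BF correlated at r = -0.44 with the mean of the other regions, against 0.98 to 0.999 for every other region, so POA/BF was left out of that split.

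The forkhead genes did not share a single highest region. Among the 52 regions, 25 of 37 members (67.6%) differed at adjusted p under 0.05 with a range of at least 2-fold between the highest and lowest region mean, against 60.3% of all genes by the same limma F test. A range of at least 4-fold was reached by 12 members (32.4%), against 26.9% of all genes. The median range was 1.45 on the log2 scale for the members and 1.24 for all genes. These shares lie near those of all genes. Both arrays of the highest region exceeded every other array for 17 members (45.9%), against 36.2% of all genes. The highest region was the retina for 4 of the 25 differing members, the lobe of the cerebellar cortex for 3, the supraoptic nucleus for 3, and the pineal gland and the ventral tegmental area for 2 each. The share of all genes highest in each region is not given here, so this tally only describes the members.

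**Figure D1:**
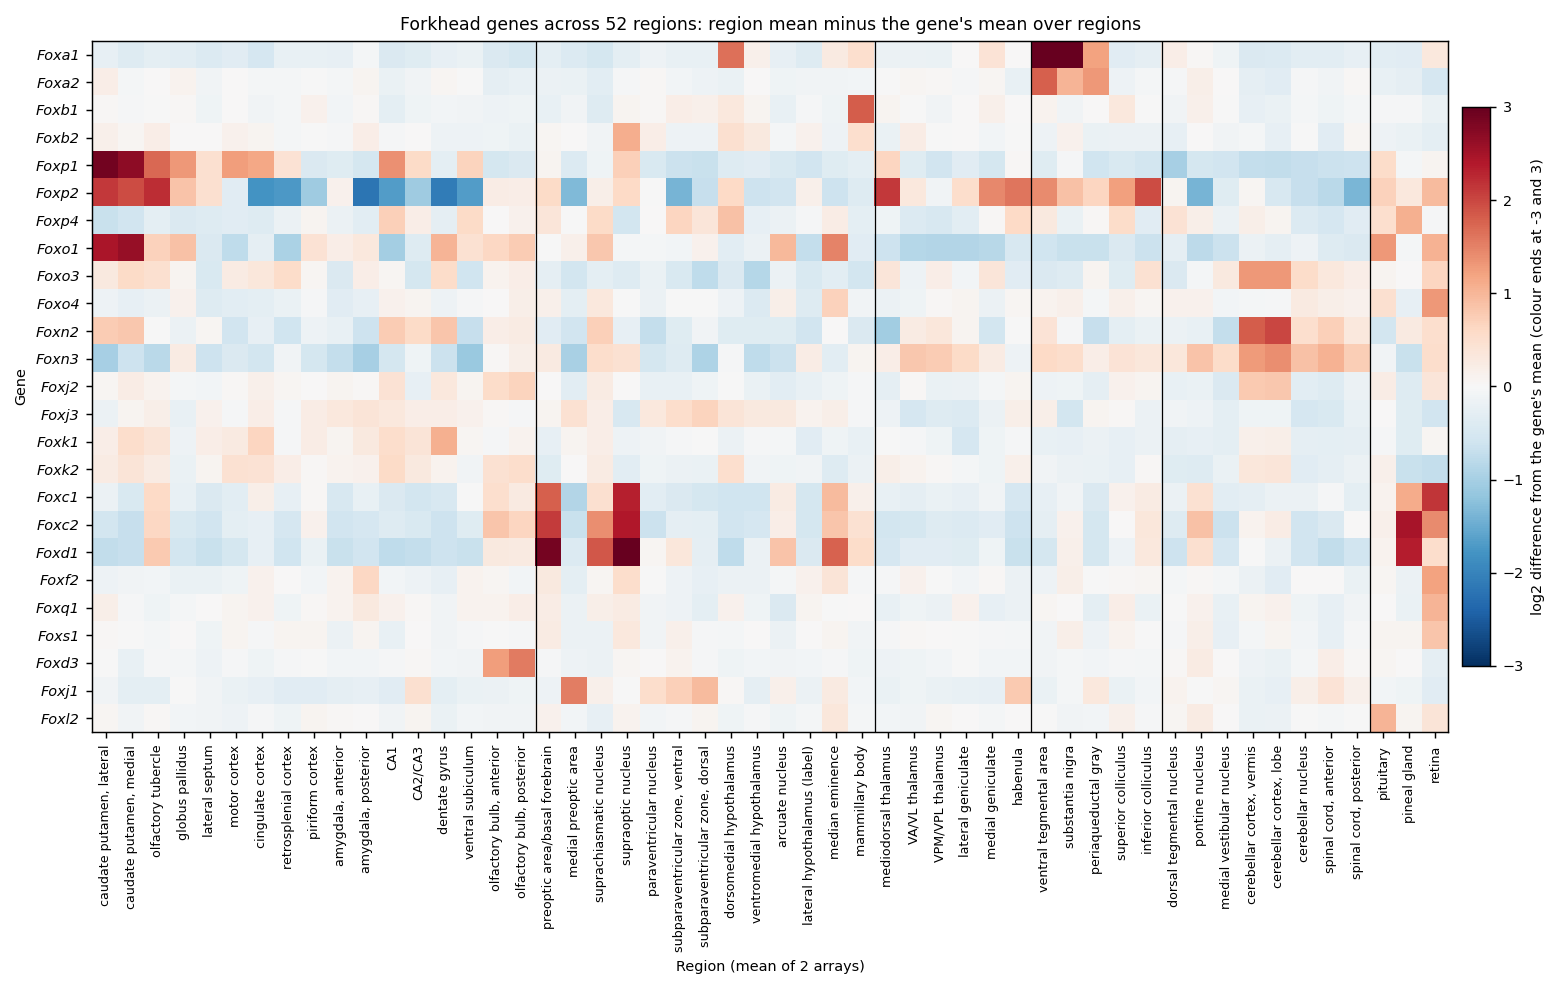
Region means of the 25 forkhead genes that differed among regions, as log2 difference from the gene's own mean over 52 regions, with genes down the page and regions across. Red blocks mark Foxa1 in the dopaminergic midbrain, Foxp1, Foxp2 and Foxo1 in the striatum, and Foxc1, Foxc2 and Foxd1 in POA/BF, the supraoptic nucleus and the pineal gland.

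In 12 comparisons between sets of regions, 16 members (43.2%) passed adjusted p under 0.05 and 2-fold at least once, against 35.1% of all genes. They gave 27 calls in the higher direction and 2 in the lower. The arrays of the compared sets did not overlap in 14 of these 29 calls (48.3%), against 66.8% of the calls over all genes. Calls of members and of all genes were spread differently over the comparisons, so these shares are not like for like. Several comparisons shared the isocortex or the whole brain and cord as the set compared against. For members whose lower side lay below 7.39, the median of all values, the size of the fold is uncertain because dim probe sets compress differences.

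**Figure D2:**
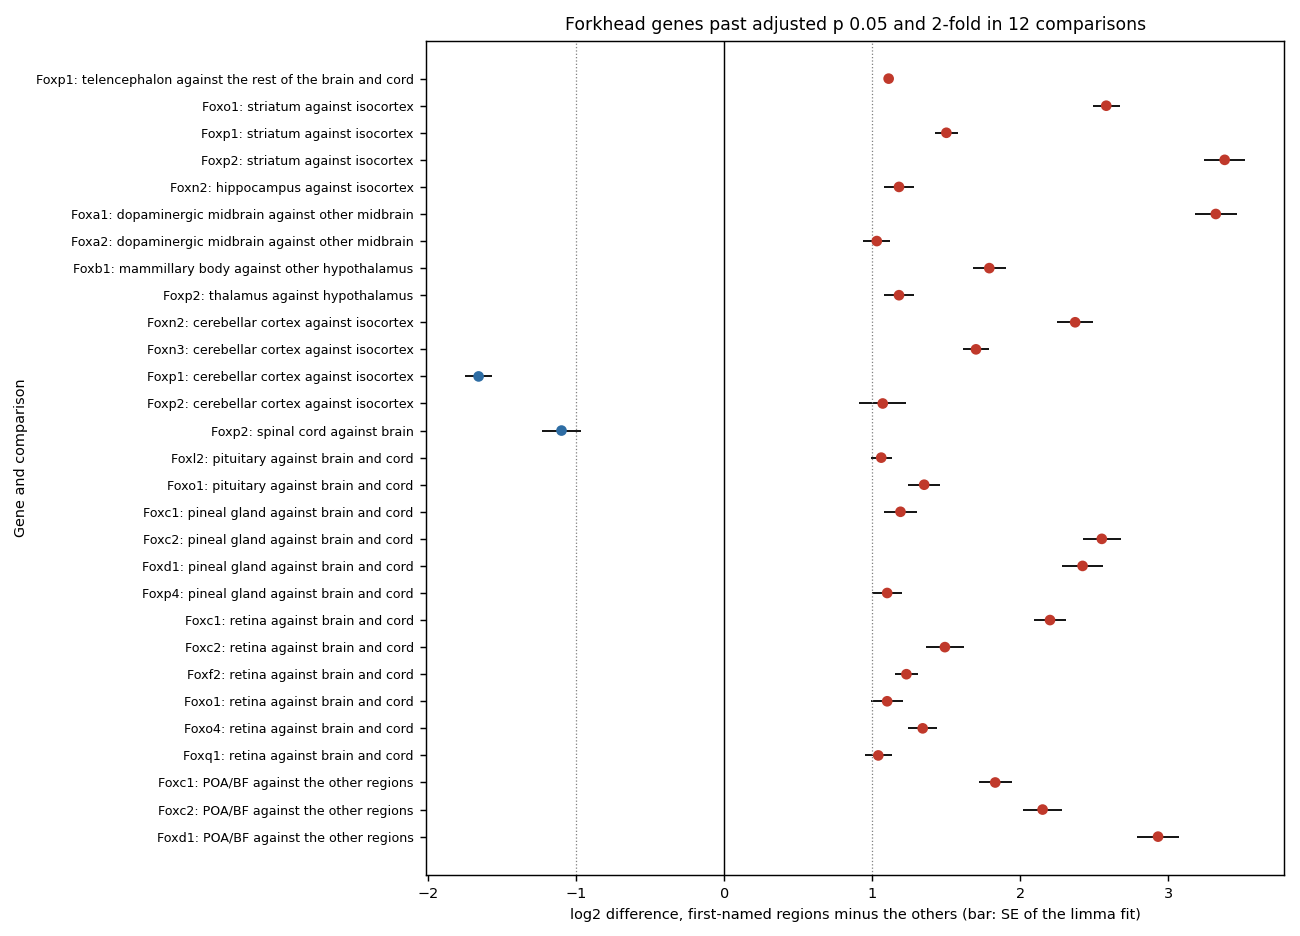
Log2 difference (first-named regions minus the others) for the 29 member and comparison pairs past adjusted p 0.05 and 2-fold, 1 row per pair, with the SE of the limma fit as a bar and dotted lines at 2-fold. Foxp2 in the striatum, 3.38, and Foxa1 in the dopaminergic midbrain, 3.32, lie farthest to the right, and the 2 points left of 0 are Foxp1 in cerebellar cortex and Foxp2 in spinal cord.

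FoxA1 and FoxA2 are pioneer factors, able to bind closed chromatin, and are needed for the making and upkeep of midbrain dopamine neurons. Both genes were higher in the dopaminergic midbrain (ventral tegmental area and substantia nigra) than in the rest of the midbrain sampled (periaqueductal gray and both colliculi). No other member was called in this comparison, in which 0.407% of all genes were higher and 0.203% lower. The RefSeq promoters of this pair, from 250 bases before to 50 after an annotated start in build GRCm38.p6, are shown because the genes varied together over the regions. Capitals mark every match, on either strand, to TGTTTAC (a forkhead motif), CCAAT (the CCAAT box) or TATAAA (the TATA box). Foxa1 lies on the minus strand at chr12:57546062-57546361, and the Foxa2 start shown, the most upstream of its 3 starts in the table, lies on the minus strand at chr2:148046920-148047219.
Foxa1: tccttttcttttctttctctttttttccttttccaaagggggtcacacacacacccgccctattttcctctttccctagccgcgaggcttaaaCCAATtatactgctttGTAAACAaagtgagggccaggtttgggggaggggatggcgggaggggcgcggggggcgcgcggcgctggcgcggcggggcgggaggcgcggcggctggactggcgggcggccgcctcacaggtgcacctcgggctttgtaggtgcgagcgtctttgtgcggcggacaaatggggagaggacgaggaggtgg
Foxa2: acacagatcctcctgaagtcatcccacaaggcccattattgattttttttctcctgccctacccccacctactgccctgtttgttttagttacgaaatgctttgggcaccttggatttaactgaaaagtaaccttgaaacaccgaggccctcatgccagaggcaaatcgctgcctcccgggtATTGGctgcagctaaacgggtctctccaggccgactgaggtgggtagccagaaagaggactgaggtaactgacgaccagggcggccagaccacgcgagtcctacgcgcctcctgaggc

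The forkhead motif appeared in 1 of 29 member promoters, that of Foxa1, where it lay on the opposite strand from position -141, counted from the start site. Over all 32851 promoters in the table, 3.65% held it. The CCAAT box appeared in 13 of 29 member promoters, against 37.4% of all promoters. The TATA box was in 13.6% of all promoters and in 3 of 29 member promoters. These included another start of Foxa2 but neither promoter shown. No match overlapped that of another motif. A match describes these letters only.

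Foxa1 read 9.72 and 9.88 in the ventral tegmental area and 8.25 and 9.46 in the substantia nigra, against 7.11 and 6.93 in the periaqueductal gray. The colliculi and most other regions lay lower, and the 6 arrays of other midbrain had a median of 5.58. No array of the other midbrain reached those of the dopaminergic midbrain. The means were 9.33 in dopaminergic midbrain and 6.01 in other midbrain, a log2 difference of 3.32 (SE 0.14, 9.97-fold, limma adjusted p = 3.64e-29). Outside the midbrain the highest arrays were those of the dorsomedial hypothalamus, 7.67 and 7.29, followed by the mammillary body, 6.68 and 5.99. The median of the 52 region means was 5.57.

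Foxa2 read 8.43 and 8.94 in the ventral tegmental area and 7.68 and 8.17 in the substantia nigra, against 8.21 and 8.21 in the periaqueductal gray. The periaqueductal gray thus overlapped the substantia nigra for Foxa2 but not for Foxa1. The set means were 8.31 in dopaminergic midbrain and 7.27 in other midbrain, a log2 difference of 1.03 (SE 0.09, limma adjusted p = 1.44e-14). The call was close to the 2-fold limit: without array 2 of either dopaminergic region the difference was 0.91. Within the regions of high hybridisation controls, 1 region against 2, it was 0.39, and within those of low controls, 1 against 1, it was 1.94. The lateral caudate putamen came next, at 7.05 and 7.14.

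A list of midbrain dopamine neuron genes was higher in the same regions. Of its 12 measured genes, 8 were higher in the dopaminergic midbrain and 0 lower, with a median log2 difference of 2.28 against -0.02 for all genes. Slc6a3 differed by 5.7, Th, the gene of tyrosine hydroxylase, by 4.33, and Nr4a2, a factor of dopamine neuron identity, by 2.03. The list's level, the mean over its genes relative to each gene's mean, was 2.73 in the ventral tegmental area, 2.58 in the substantia nigra and 1.03 in the periaqueductal gray. Over the 52 region means, r with this list was 0.85 for Foxa1 and 0.71 for Foxa2, where the 99th percentile of all genes with a range of at least 2-fold (varying genes) was 0.47. The points share arrays and processing, and no p is given. The profiles most like Foxa1 among 10981 genes were Ttc6 (r = 0.882), Slc6a3 (0.861) and C130021I20Rik (0.852). Those most like Foxa2 were Ttc6 (0.866), Gucy2c (0.808), the guanylyl cyclase C gene, and Foxa1 (0.802). Among 9 measured myelin genes, 3, Mog, Ugt8a and Cldn11, were also higher in the dopaminergic midbrain, by 1.2 to 1.34, and their part in the FoxA result was not tested.

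**Figure D3:**
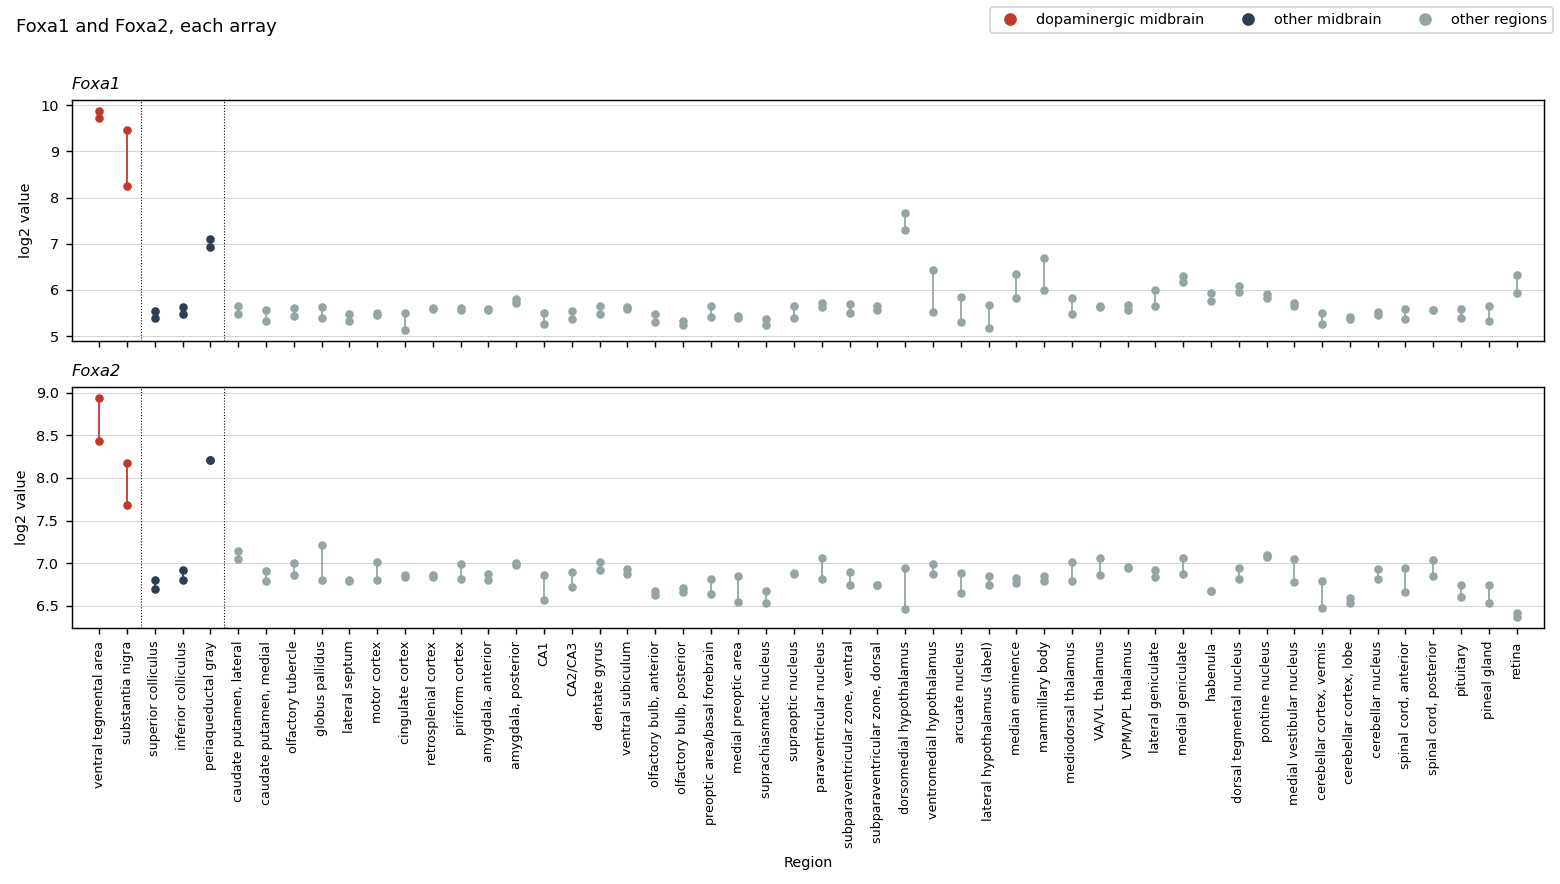
Log2 values of Foxa1 and Foxa2 on each array (points, joined within a region), with the dopaminergic midbrain in red, other midbrain in dark blue and the remaining regions in gray. Foxa1 stands highest in the ventral tegmental area, at 9.72 and 9.88, while the periaqueductal gray reaches the level of the substantia nigra for Foxa2, at 8.21.

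Foxb1 is a hypothalamic factor needed for the mammillary body to form normally. It read 8.03 and 9.02 in the mammillary body, against 6.17 to 7.03 on the 20 arrays of 10 other hypothalamic regions. All arrays of those regions lay below both mammillary arrays. The means were 8.53 in the mammillary body and 6.73 in the other hypothalamic regions, a log2 difference of 1.79 (SE 0.11, 3.46-fold, limma adjusted p = 2.93e-21). It was the only member called in this comparison, in which 0.704% of all genes were higher and 0.434% lower. Of 9 measured genes in the list of mammillary and posterior hypothalamic factors, 2 were higher, Lhx1 and Irx3, each by 1.01. The closest profiles were weak likenesses: Hdc, the histamine-synthesising enzyme (r = 0.595), Nkx2-1, a ventral forebrain factor (0.53), and Adcyap1, the PACAP gene (0.482). Foxb2, a relative with a probe set averaging 7.41, near the median of all values, was highest in the supraoptic nucleus, at 8.51 and 8.49. The mammillary body, at 7.86 and 7.99, and the dorsomedial hypothalamus, at 7.77 and 8.02, came next and overlapped.

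FoxP proteins are repressors that bind DNA as pairs; FoxP1 and FoxP2 are expressed in striatal projection neurons, and human FOXP2 is known for its link to speech. Foxp1, Foxp2 and Foxo1 were higher in the striatum (both parts of the caudate putamen and the olfactory tubercle) than in the isocortex (retrosplenial, motor and cingulate). These 3 of 37 members were called in a comparison in which 1.57% of all genes were higher, and no member was lower (2.29% of all genes). All striatal arrays lay above all isocortical arrays for each of the 3 genes. All 6 regions lay in the set of high hybridisation controls.

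Foxp1 read 12.71 and 12.58 in the lateral caudate putamen, 12.63 and 12.26 in the medial caudate putamen and 11.4 and 11.53 in the olfactory tubercle. The isocortical arrays ran from 10.07 to 11.13 with a median of 10.81. The means were 12.18 in striatum and 10.69 in isocortex, a log2 difference of 1.5 (SE 0.08, 2.82-fold, limma adjusted p = 2.82e-25). CA1, at 11.15 and 11.11, the globus pallidus, at 11.06 and 11.07, and the motor cortex, at 11.05 and 10.95, followed the tubercle. The cingulate cortex, at 11.13 and 10.66, spanned the pallidum and the motor cortex, so their order is within the spread. Within the hippocampal formation, CA1 lay above the ventral subiculum, at 10.51 and 10.31, and CA2/CA3, at 10.37 and 10.3, which overlapped. The lowest region was the dorsal tegmental nucleus, at 8.88 and 8.61. All 8 Foxp1 probe sets were highest in the lateral caudate putamen, and the other 7 correlated with the chosen one at 0.88 to 0.99 over regions.

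Foxp1 was also the single member called for the telencephalon as a whole. Over 17 telencephalic regions, without POA/BF and the medial preoptic area, it averaged 10.45, against 9.34 over 30 regions of the rest of the brain and cord, a log2 difference of 1.11 (SE 0.03, limma adjusted p = 9.62e-42). In this comparison 1.40% of all genes were higher and 0.945% lower. The sets overlapped widely, with arrays from 9.1 to 12.71 (median 10.3) in the telencephalon and from 8.61 to 10.57 (median 9.25) elsewhere. Within the regions of low hybridisation controls the difference was 0.70, under 2-fold, and within those of high controls it was 1.33. Among 12 measured telencephalic transcription factors, 6 were higher in the telencephalon and 0 lower, with a median of 1.03. Of 9 measured myelin genes, 7 were lower in the telencephalon (median -1.25), and their part in the result was not tested.

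Foxp2 had another order of regions. It read 11.28 and 11.13 in the olfactory tubercle, 11.14 and 11.08 in the mediodorsal thalamus, 11.11 and 11.12 in the lateral and 10.65 and 11.27 in the medial caudate putamen. The inferior colliculus, at 10.87 and 11.05, the habenula, at 10.51 and 10.68, and the medial geniculate, at 10.66 and 10.23, came next. The arrays of the medial caudate putamen spanned those of the lateral part, the mediodorsal thalamus and the inferior colliculus, so these regions had no order beyond their spread. The highest region also changed with the probe set. Those correlating with the chosen one at 0.97 and 0.72 were highest in the olfactory tubercle. The one at 0.99 was highest in the inferior colliculus and the one at 0.87 in the mediodorsal thalamus. The dimmest was flat (range 0.28, r = 0.11). At the low end lay the posterior amygdala, at 6.77 and 6.83, the dentate gyrus, at 7 and 6.78, and the cingulate cortex, at 7.12 and 7.27. Foxp2 averaged 11.09 in striatum and 7.71 in isocortex, a log2 difference of 3.38 (SE 0.14, 10.4-fold, limma adjusted p = 1.23e-29). The motor cortex, at 8.34 and 8.96, stood above the other isocortical regions.

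In the thalamus (5 nuclear groups), Foxp2 averaged 9.86, against 8.68 over 11 hypothalamic regions, a log2 difference of 1.18 (SE 0.10, limma adjusted p = 4.53e-17). Thalamic arrays ran from 8.88 to 11.14 with a median of 9.66, and hypothalamic ones from 7.32 to 9.6 with a median of 8.86, so the sets overlapped. No other member was called, and 2.14% of all genes were higher and 2.13% lower. Within the thalamus the mediodorsal nucleus and the medial geniculate lay high, with means of 11.11 and 10.44. The ventral posterior nuclei, at 8.88 and 8.91, lay below the median of all regions, 9.1. Outside the thalamus, the ventral tegmental area and the superior colliculus lay near the medial geniculate, with means of 10.42 and 10.22. Of 9 measured thalamic genes, 7 were higher and 1, Calb2, lower. Of the myelin list, 7 of 9 measured myelin genes were also higher in the thalamus, and their part in the result was not tested. With the mean of all 6 Foxp2 probe sets, the difference was 0.96, under the 2-fold limit. In the spinal cord, Foxp2 averaged 7.9, against 9 over 47 brain regions, a log2 difference of -1.10 (SE 0.13, limma adjusted p = 6.11e-11), in a comparison where 1.76% of all genes were higher and 0.753% lower. The 4 spinal arrays, from 7.56 to 8.28, lay within the range of the brain. With the mean of all Foxp2 probe sets the spinal difference was -0.67, under 2-fold.

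Foxp4, the remaining measured FoxP gene with a level above the dim range, was not called in the striatum. It read 8.12 and 7.78 in the lateral caudate putamen, its lowest region, and was highest in the pineal gland, at 9.78 and 9.58, followed by the dorsomedial hypothalamus, at 9.54 and 9.45, and CA1, at 9.44 and 9.22. The olfactory tubercle, at 8.29 and 8.35, lay within the isocortical range. Over 51 regions the Foxp4 profile correlated at -0.84 with the hybridisation controls, the strongest such correlation of the 37 members, so control level and region cannot be told apart in this order. In the pineal gland it averaged 9.68, against 8.58 over 49 regions of brain and cord, a log2 difference of 1.10 (SE 0.10, limma adjusted p = 8.86e-16). The call did not hold under several settings: the difference was 0.69 within the regions of low hybridisation controls and 0.54 with the mean of its 3 probe sets, of which a dimmer one correlated at -0.18 with the chosen one. Over 52 regions the profiles of Foxp1 and Foxp2 correlated at 0.31. Those most like Foxp1 were Dazl (r = 0.851), a gene known from germ cells, Smpd3 (0.799) and Lrrc10b (0.786). Those most like Foxp2 were less close: Slc29a1 (0.627), a nucleoside transporter, Syndig1l (0.626) and Rbms1 (0.609).

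FoxO proteins act downstream of insulin, IGF and PI3 kinase signalling and bear on metabolism, stress resistance and survival. Foxo1 read 11.68 and 11.55 in the medial and 11.46 and 11.42 in the lateral caudate putamen, against 7.9 to 8.75 on the isocortical arrays. The olfactory tubercle lay far lower, at 9.59 and 9.78, though above every isocortical array. The means were 10.91 in striatum and 8.33 in isocortex, a log2 difference of 2.58 (SE 0.09, 5.99-fold, limma adjusted p = 4.62e-34). Next in order stood the median eminence, at 10.36 and 10.59, the pituitary, at 10.38 and 10.21, the retina, at 10.2 and 9.89, the dentate gyrus, at 10.03 and 10.01, and the arcuate nucleus, at 9.86 and 10.05. CA1 was the lowest region, at 7.89 and 8.08, so the dentate gyrus lay above CA1 for Foxo1. For Foxp1 it lay below CA1, at 9.57 and 9.32. Of 4 Foxo1 probe sets, 3 were highest in the caudate putamen, and the dim remaining one was flat over regions (r = -0.03 with the chosen one).

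Some genes of the pathway were called beside Foxo1 in the striatum, where 1.57% of all genes were higher and 2.29% lower. Of 18 measured genes upstream of FoxO, 1 was higher, Sgk3, a kinase of FoxO proteins, by 1.13, and 1 was lower, Irs1, an insulin receptor substrate, by a log2 difference of -1.44. Of 20 measured FoxO target genes, 2 were higher, Sesn3 by 1.18 and Fbxo32 by 1.01, and the list's median was -0.07 against 0.01 for all genes. Of 12 measured FoxP targets and co-repressors, 2 were lower, Tbr1, a cortical projection neuron factor, by -3.84 and Mef2c by -1.36. Beside these, 11 of 12 measured medium spiny neuron and striatal genes were higher, with a median of 3.8. Drd1, the D1 dopamine receptor gene, differed by 4.85 and Rarb, a retinoic acid receptor gene, by 3.89. Over regions, r with this list was 0.67 for Foxp1, 0.63 for Foxo1 and 0.44 for Foxp2, where the 99th percentile of all varying genes was 0.60. The profiles most like Foxo1 were Spata13 (r = 0.859), Mettl9 (0.749) and B3gnt2 (0.747).

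**Figure D4:**
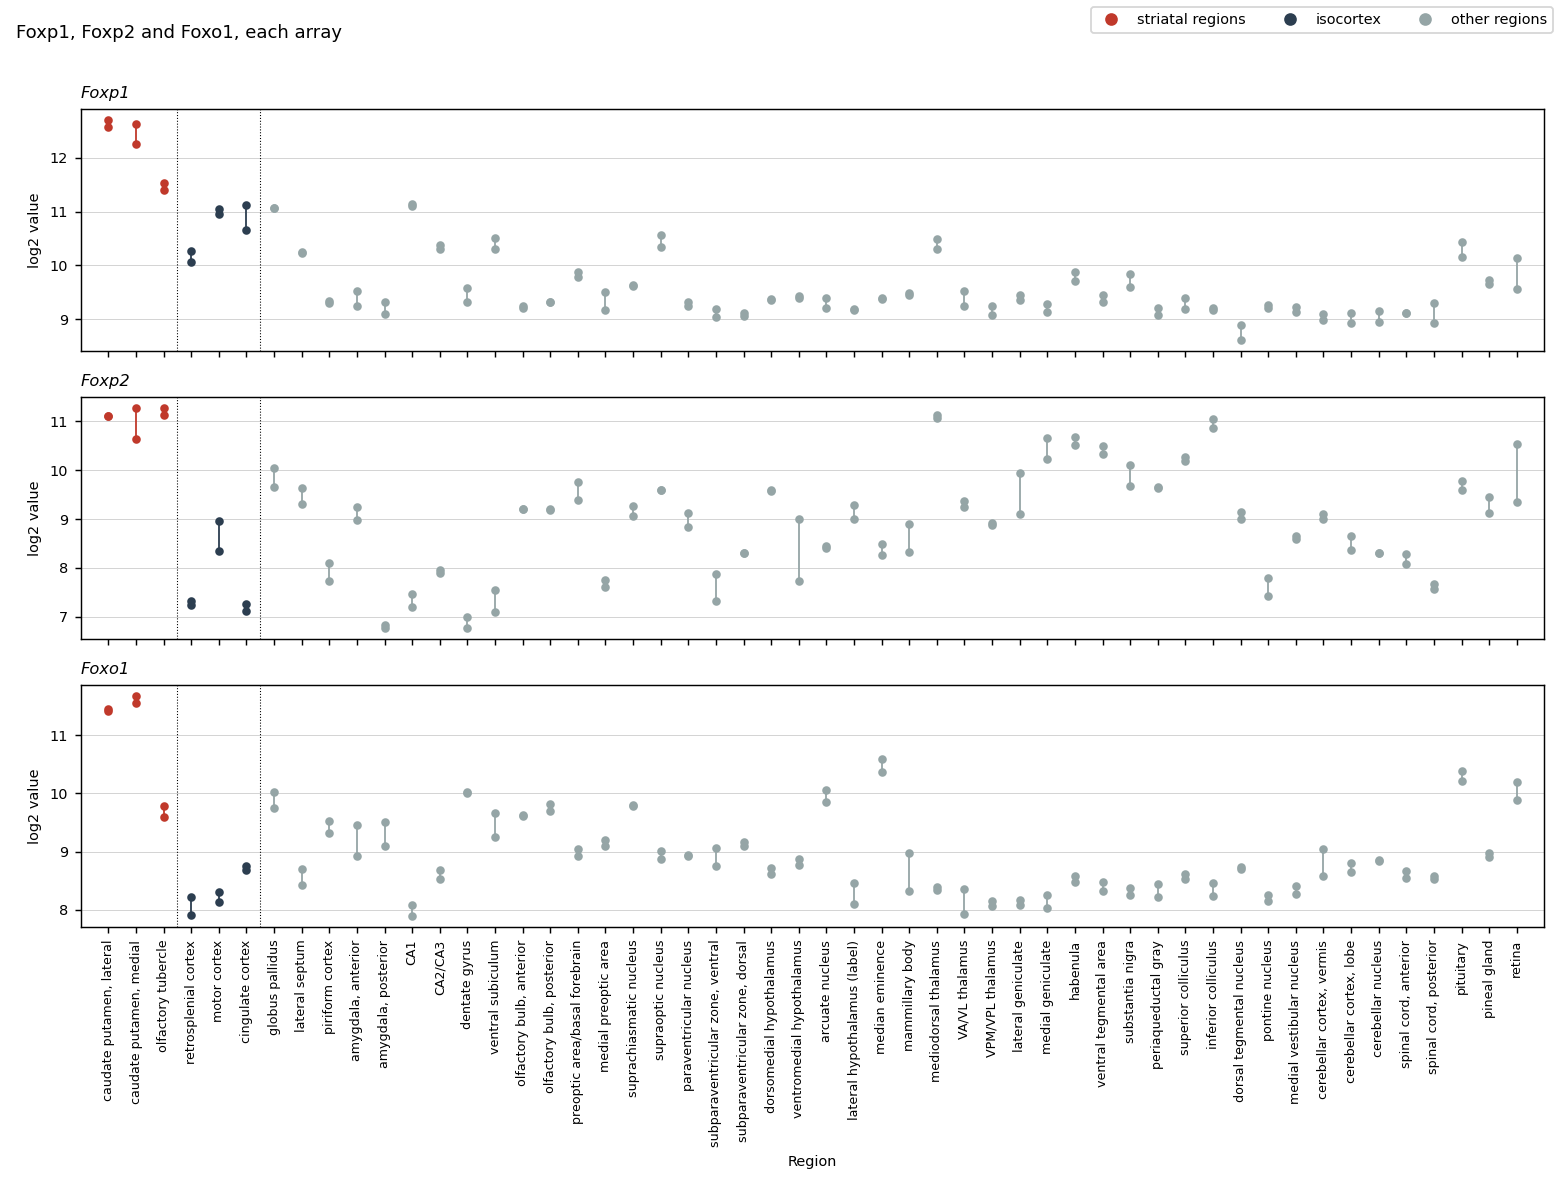
Log2 values of Foxp1, Foxp2 and Foxo1 on each array (points, joined within a region), with striatal regions in red, isocortex in dark blue and the remaining regions in gray. The striatum stands above the isocortex in all panels, and the mediodorsal thalamus and the inferior colliculus reach the striatal level for Foxp2, near 11.

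Foxo1 was also higher in the pituitary, where it averaged 10.3, against 8.95 over brain and cord, a log2 difference of 1.35 (SE 0.11, limma adjusted p = 1.13e-16). The caudate putamen and the median eminence still lay at or above the pituitary. Foxl2, known from pituitary gonadotropes and the ovary, read 10.05 and 9.99 in the pituitary, against 8.68 to 9.39 on the 98 arrays of brain and cord. None of those arrays reached the pituitary, and the log2 difference was 1.06 (SE 0.07, limma adjusted p = 7.46e-20). These were the 2 members called in the pituitary, where 6.10% of all genes were higher and 7.24% lower. With the mean of all probe sets, Foxl2 differed by 0.81 and Foxo1 by 0.77, both under 2-fold. The retina, at 9.39 and 9.38, and the median eminence, at 9.3 and 9.39, came next for Foxl2. Over 52 regions Foxl2 correlated at 0.85 with the list of anterior pituitary genes, and at 0.45 over the 49 regions of brain and cord. In the pituitary, 8 of 12 genes of meninges and fibroblasts were higher and all 9 measured myelin genes lower. The pituitary list's level was 3.96 in the pituitary, 2.45 in the retina and 1.1 in the median eminence. Among 20 measured FoxO target genes, 5 were higher in the pituitary and 0 lower: Txnip by 3.27, the cell cycle inhibitor Cdkn1b by 1.58, Sesn1 by 1.2, Bcl2l11 by 1.02 and Gadd45a by 1.01.

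Foxo3 was highest in the cerebellar cortex, at 10.3 and 10.17 in the vermis and 10.26 and 10.2 in the lobe, and lowest in the ventromedial hypothalamus, at 7.86 and 8.28. Its chosen probe set and a second one (r = 0.85) were both highest there, while a dimmer one was flat (r = -0.05). Foxo4 was highest in the retina, at 9.3 and 9.48, followed by the median eminence, at 8.75 and 8.8. Its other, dimmer probe set did not follow this profile (r = -0.28), ranged over 0.59 and was highest in the supraoptic nucleus.

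FoxN2 and FoxN3 are less studied members, and FoxN3 is known as a checkpoint suppressor. Both genes were highest in the cerebellar cortex. Foxn2 read 9.7 and 9.77 in the lobe and 9.71 and 9.41 in the vermis, against 6.8 to 7.68 in the isocortex, a log2 difference of 2.37 (SE 0.12, 5.18-fold, limma adjusted p = 9.17e-27). Foxn3 read 10.45 and 10.63 in the lobe and 10.53 and 10.32 in the vermis, against 8.47 to 9.05 in the isocortex, a log2 difference of 1.7 (SE 0.09, 3.24-fold, limma adjusted p = 1.6e-25). Neither gene's cerebellar arrays overlapped the isocortical ones. Foxp2 also passed in this direction, at a mean of 8.78 in cerebellar cortex and 7.71 in isocortex (log2 difference 1.07, SE 0.16, limma adjusted p = 6.4e-08), and Foxp1 was lower, at 9.03 in cerebellar cortex and 10.69 in isocortex (log2 difference -1.66, SE 0.09, limma adjusted p = 2.51e-25). In this comparison 3.40% of all genes were higher and 3.62% lower. The Foxp2 call fell to 0.41 with the mean of its probe sets and to 0.97 without array 1 of the motor cortex. That mean included a dim probe set that was flat over regions (r = 0.11 with the chosen one).

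Cerebellar cortex and isocortex lay in different sets of hybridisation controls, so set and tissue cannot be told apart by splitting. With the controls as a covariate, the 4 differences were 2.42 for Foxn2, 1.74 for Foxn3, 1.11 for Foxp2 and -1.46 for Foxp1. The covariate was fitted beside a mean per region, so its slope came only from differences between arrays of the same region. It cannot separate control level from tissue either. All 9 measured Purkinje and granule cell genes were higher in the cerebellar cortex. Of the FoxO targets, 3 of 20 were higher, against 3.40% of all genes: Cdkn1b by 2.17, Cited2 by 2.03 and Sesn1 by 1.02. Of the FoxP targets and co-repressors, Ctbp2, a co-repressor, was higher by 2.2, while Tbr1, Mef2c and Cntnap2 were lower, by -4.13, -3.32 and -1.21.

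Outside the cerebellum, Foxn2 was higher in the hippocampus (CA1, CA2 and CA3, dentate gyrus), with arrays from 8.18 to 8.61, than in the isocortex, from 6.8 to 7.68. The log2 difference was 1.18 (SE 0.10, limma adjusted p = 7.21e-15). It was the only member called there, among 1.03% of all genes higher and 1.15% lower, and with the mean of both its probe sets the difference was 0.68. Within the regions of high hybridisation controls, with 1 hippocampal region against 3 isocortical ones, the difference was 1.30. The other hippocampal regions lay in the low set, so control level and tissue cannot be told apart for them. Of 8 measured choroid plexus genes, 4 were higher in the hippocampus (median 1), the 9 myelin genes had a median of 0.68 with 0 called, and their part in the result was not tested. Foxn3 read 10.13 and 10.27 in the anterior spinal cord, 10 and 10.07 in the cerebellar nucleus and 8.15 and 7.96 in the ventral subiculum, its lowest region. Foxn2 read 8.41 and 8.52 in the anterior spinal cord and 8.06 and 8.42 in the cerebellar nucleus, where it overlapped its own hippocampal arrays. The profiles of Foxn2 and Foxn3 correlated at 0.38 over 52 regions. The correlation of Foxn3 with the oligodendrocyte and myelin list was 0.66 over 52 regions and 0.79 over brain and cord. That list was highest in the spinal cord, at 1.94 and 1.78, and its part in the Foxn3 profile was not tested. The profiles most like Foxn3 were Cdc42ep1 (r = 0.921), Slc12a2 (0.884), a chloride importer gene, and Septin4 (0.862). Those most like Foxn2 were Homer3 (0.772), a synaptic scaffold gene, Rbak (0.681) and Gdf10 (0.668), and those most like Foxo3 were Abtb1 (0.785), Mob1b (0.754) and Ankhd1 (0.74).

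Foxj2, Foxj3, Foxk1 and Foxk2, which are expressed in many tissues, had ranges from 1.24 to 1.55 on the log2 scale, near the median range of all genes. Foxj2 was highest in the cerebellar lobe, at 10.17 and 10.18, Foxj3 in the dorsal subparaventricular zone, at 11.37 and 11.25, Foxk1 in the dentate gyrus, at 9.66 and 9.29, and Foxk2 in CA1, at 10.09 and 9.98. With the mean of all probe sets, the ranges of Foxj3, Foxk1 and Foxk2 fell to 0.88, 0.66 and 0.71, under 2-fold. The other Foxk1 probe sets correlated at 0 and 0.01 with the chosen one and were highest in the globus pallidus and the posterior amygdala.

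FoxC1 and FoxC2 are factors of mesenchyme, meninges and vessels, and FoxD1 is known from stromal cells and from progenitors of the hypothalamus. Foxc1, Foxc2 and Foxd1 formed the closest group of members: over 52 regions, Foxc2 and Foxd1 correlated at 0.92 and Foxc1 and Foxc2 at 0.90. The RefSeq promoters of Foxc1 (plus strand, chr13:31806396-31806695) and Foxd1 (plus strand, chr13:98353995-98354294) in GRCm38.p6 are shown because these genes shared their highest region. Capitals mark the same 3 motifs, and here each match is a CCAAT box.
Foxc1: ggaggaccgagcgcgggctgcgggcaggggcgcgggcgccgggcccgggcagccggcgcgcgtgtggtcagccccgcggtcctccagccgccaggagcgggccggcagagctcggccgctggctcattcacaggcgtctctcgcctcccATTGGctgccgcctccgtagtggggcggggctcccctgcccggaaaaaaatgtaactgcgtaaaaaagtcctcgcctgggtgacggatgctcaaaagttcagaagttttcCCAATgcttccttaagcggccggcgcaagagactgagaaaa
Foxd1: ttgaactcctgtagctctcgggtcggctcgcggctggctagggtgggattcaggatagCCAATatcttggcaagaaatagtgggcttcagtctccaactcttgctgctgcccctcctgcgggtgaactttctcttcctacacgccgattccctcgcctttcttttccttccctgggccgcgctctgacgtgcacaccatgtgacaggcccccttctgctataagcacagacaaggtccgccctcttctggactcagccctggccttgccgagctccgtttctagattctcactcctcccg

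The 3 genes were the only members called in POA/BF, where 1.53% of all genes were higher and 0.115% lower than in the other 51 regions. Foxd1 read 8.71 and 8.64 in POA/BF, against a median of 5.45 on the 102 other arrays. The log2 difference was 2.93 (SE 0.14, 7.6-fold, limma adjusted p = 2.31e-26), and Foxd1 alone of the group had no other region above POA/BF except the supraoptic nucleus. Foxc1 read 9.22 and 8.92 in POA/BF, against a median of 7.05 elsewhere (log2 difference 1.83, SE 0.11, limma adjusted p = 9.4e-22). Foxc2 read 7.87 and 7.96 in POA/BF, against a median of 5.47 elsewhere (log2 difference 2.15, SE 0.13, limma adjusted p = 8e-22). POA/BF was not the highest region for any of them.

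The supraoptic nucleus was highest for Foxc1, at 9.71 and 9.48, and for Foxd1, at 9.23 and 9.16. Foxc2 was highest in the pineal gland, at 8.5 and 8.05, where it overlapped the supraoptic nucleus, at 8.33 and 8.11. In the pineal gland against brain and cord, Foxc2 differed by 2.55, Foxd1 by 2.42 and Foxc1 by 1.19 (SE 0.13, 0.14 and 0.11, limma adjusted p at most 3.62e-15). Together with Foxp4 these were 4 higher members and 0 lower, where 7.52% of all genes were higher and 7.78% lower.

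The retina parted the group. Foxc1 read 9.35 and 9.47 there, next to its level in the supraoptic nucleus, and Foxc2 read 7.21 and 7.23, but Foxd1 read 6.64 and 6.04, far below POA/BF. Against brain and cord, Foxc1 differed by 2.2 and Foxc2 by 1.49 in the retina, while Foxd1 was not called. In the regions next in order, Foxd1 read 7.7 and 7.65 in the suprachiasmatic nucleus and 7.41 and 7.74 in the median eminence. Foxc2 read 7.4 and 7.02 in the suprachiasmatic nucleus, and Foxc1 read 8.22 and 8.21 in the median eminence, so these regions were high for other genes of the group too.

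Genes of meninges and fibroblasts followed the same regions. Of the 12 in that list, 11 were higher in POA/BF (median 2.75), 10 in the pineal gland (2.75) and 9 in the retina (3.9), and 0 were lower. In POA/BF, Col3a1, a fibrillar collagen gene, differed by 3.37, Igf2 by 3.28 and Aldh1a2, a retinoic acid enzyme of meninges, by 2.85. The list's level was 3.08 in the retina, 2.5 in the supraoptic nucleus, 2.35 in POA/BF, 2.26 in the pineal gland and 2.02 in the median eminence. Over 52 regions, r with the list was 0.94 for Foxc1, 0.92 for Foxc2 and 0.85 for Foxd1, where the 99th percentile of all varying genes was 0.83. Endothelial and pericyte genes were higher in 3 of 13 cases in POA/BF and 5 of 13 in the pineal gland, where all 8 measured choroid plexus genes were also higher. The part of such cells in the forkhead values was not tested. The profiles most like Foxc1 were Mrc1 (r = 0.957), a gene of border macrophages, Anxa3 (0.953) and Sult1a1 (0.952). Those most like Foxc2 were Slc47a1 (0.961), Thbd (0.956) and Fn1 (0.943), and those most like Foxd1 were Slc13a4 (0.929), Foxc2 (0.921) and Slc47a1 (0.895).

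**Figure D5:**
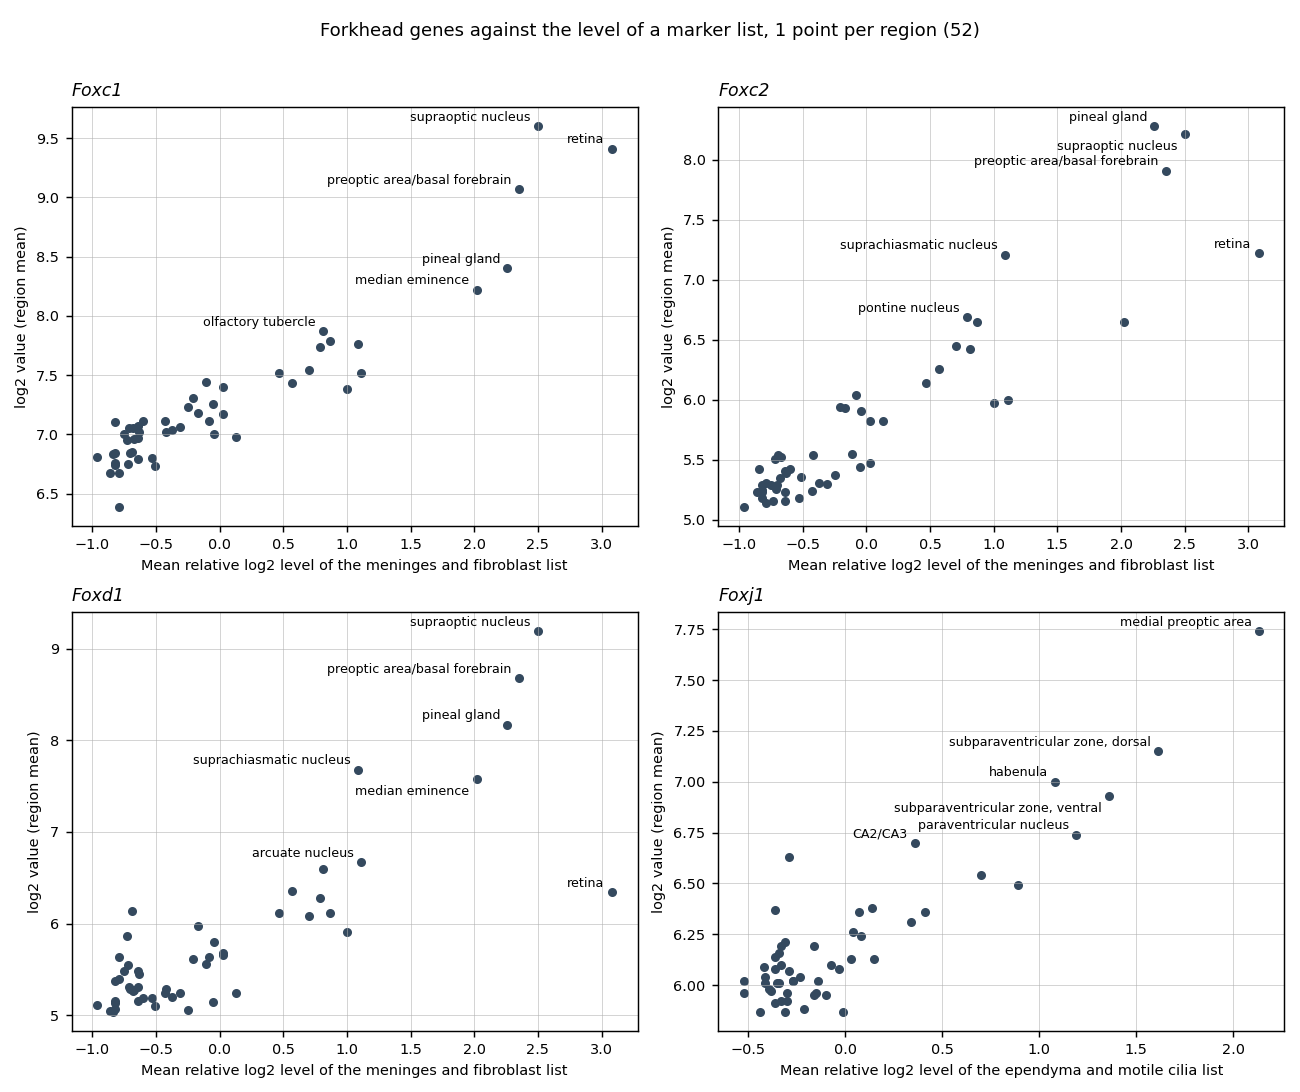
Region means (log2) of Foxc1, Foxc2 and Foxd1 against the level of the meninges and fibroblast list, and of Foxj1 against the ependyma and motile cilia list, 1 point per region and the 6 highest regions named. Foxd1 in the retina lies at 6.34, below the other regions with a list level above 2.

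Foxf2 and Foxs1, known from pericytes, and Foxq1, known from brain endothelium, were all highest in the retina. Foxf2 read 8.03 and 7.86 there, against 6.29 to 7.39 in brain and cord (log2 difference 1.23, SE 0.08, limma adjusted p = 8.3e-21). Foxq1 read 8.16 and 8.7 in the retina, against 6.84 to 7.72 in brain and cord (log2 difference 1.04, SE 0.09, limma adjusted p = 2.49e-16). With Foxc1, Foxc2, Foxo1 (1.10) and Foxo4 (1.34), these made 6 higher members and 0 lower, where 13.0% of all genes were higher and 8.46% lower, so the share of members is near that of all genes. Endothelial and pericyte genes were higher in the retina in 10 of 13 cases, and 9 of 15 measured anterior pituitary genes were higher there too. The part of either in these values was not tested. The Foxq1 difference was 0.77 without array 2 of the retina, Foxo1 fell to 0.94 without array 1, and with the mean of all probe sets Foxf2, Foxo1 and Foxo4 fell to 0.61, 0.68 and 0.58. In the RefSeq gene table (GRCm38.p6), Foxq1, Foxf2 and Foxc1 are direct neighbours on chromosome 13. Foxq1 and Foxf2 correlated at 0.65 over 52 regions and at 0.35 over the 49 of brain and cord, and Foxf2 and Foxc1 at 0.68 and 0.63. On chromosome 8, Foxc2 and its neighbour Foxl1 correlated at 0.256, and on chromosome 4 Foxd2 and Foxe3 at -0.0157.

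FoxJ1 is the main factor of motile cilia, which line the ventricles on ependymal cells. Foxj1 read 7.7 and 7.77 in the medial preoptic area, above every other array. The dorsal subparaventricular zone, at 7.09 and 7.21, and the habenula, at 6.98 and 7.01, followed. The list of ependyma and motile cilia genes was highest in the medial preoptic area, at 2.13, and then in the dorsal subparaventricular zone, at 1.61. Foxj1 correlated with it at 0.90 over 52 regions, where the 99th percentile of all varying genes was 0.69. The spinal cord differed: its anterior part ranked 7 for Foxj1 but 30 for the list, and its posterior part 11 and 41. All Foxj1 region means except that of the medial preoptic area lay below 7.39, the median of all values.

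Foxd3, known from the neural crest, was highest in the olfactory bulb, at 8.75 and 8.82 in the posterior and 8.49 and 8.5 in the anterior part. Both bulb regions stood above the pontine nucleus, which came next at 7.47 and 7.48.

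The remaining 12 members had ranges of 0.32 to 0.98 on the log2 scale and did not reach 2-fold. Of these, 5 (Foxa3, Foxd4, Foxe3, Foxn1 and Foxp3) had no region mean at the median of all values. Foxp3 is known from regulatory T cells, Foxn1 from the thymus, Foxa3 from the liver and Foxe3 from the lens. The largest range among the 12 was that of Foxd2, 0.98, with its highest mean in POA/BF, 7.65, and just past the 2-fold limit stood Foxs1, with a range of 1.08. Foxm1, a cell cycle factor, ranged over 0.89, Foxf1 over 0.75, Foxi1 over 0.68, Foxh1 over 0.60, Foxn4 over 0.57 and Foxl1 over 0.52.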

How the data were processed

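Arrays were Affymetrix mouse expression arrays, with RNA prepared with Trizol and labelled with biotin in 1 cycle, per the labels' protocols. The deposited log2 values were made by the authors with RMA, per the submitters' processing notes, which background-corrects, normalizes between arrays and summarises probes; its version is not given in the sources used here. Of 45101 probe sets, 34945 carried 1 gene symbol, 932 several and 9160 none, and 64 were controls. Only those with 1 symbol were used, and the brightest stood for its gene, which gave 18193 genes. Levels of different probe sets were not compared.

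A limma model with 1 term per region was fitted to all genes and all arrays (R 4.3.3, limma 3.58.1), and p-values were Benjamini-Hochberg adjusted over all genes. A call needed adjusted p under 0.05 and 2-fold. Comparisons weighted regions equally. The code was tested on simulated data. Figures were drawn with matplotlib 3.10.9.

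All members could be named. For each member with a range of at least 4-fold that reached the median of all values, the 3 genes with the highest Pearson r over the region means were named, among genes with a range of at least 2-fold. Listed genes were named where called. Members and lists were chosen with earlier results of these data known. Alternatives covered normalization, probe sets, the fold limit, dim genes, regions, hybridisation controls, the variance model, a replicate block and leaving out single arrays. Arrays were left out only from small sets of regions. None was left out in the telencephalon and thalamus comparisons or in the test among regions. The replicate numbers were checked for pairing over 1326 pairs of regions. Deviations of same-numbered arrays correlated above 0.1 in 24.7% of pairs, with a median r of 0 and a span from -0.5 to 0.52. Such a check cannot decide whether some regions shared a pairing, and the main fit used none.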

Additional observations from a re-analysis of the deposited data

How the results depend on the processing

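Of the 29 calls, 16 held under all alternatives, 13 were lost under at least 1, and 0 turned their direction; the causes of lost calls were not tested. With the mean of all probe sets of a gene, the members called became 0 higher in the hippocampus, 0 higher in the thalamus, 0 lower in the spinal cord, 0 higher in the pituitary and 3 higher in the retina, and the ranges of Foxf2, Foxo4 and Foxp4 fell to 0.76, 0.77 and 0.88. With adjusted p under 0.05 at any fold, which drops the 2-fold limit, members higher and lower numbered 12 and 11 in the telencephalon, 5 and 2 in the striatum, 7 and 3 in the hippocampus, 4 and 2 in the dopaminergic midbrain, 6 and 4 in the mammillary body, 5 and 10 in the thalamus, 10 and 10 in the cerebellar cortex, 5 and 13 in the spinal cord, 8 and 3 in the pituitary, 5 and 9 in the pineal gland, 15 and 12 in the retina and 12 and 5 in POA/BF. Leaving out 1 array at a time gave 1 to 2 members higher in the dopaminergic midbrain, 2 to 4 in the cerebellar cortex, 3 to 4 in the pineal gland and in the striatum and 5 to 6 in the retina. Shares of all genes under these settings are not given here, so the counts show only how the calls depend on the setting. Quantile normalization took Foxp2 in the cerebellar cortex and Foxq1 in the retina to 0.99. Without pituitary, pineal gland and retina, the ranges of Foxf2, Foxk2, Foxl2, Foxq1 and Foxs1 fell below 2-fold. The split by hybridisation controls was chosen after seeing the data. With the replicate block, 25 members still differed among regions and the counts were the same in every comparison. Each region has 2 arrays, which limits the precision, and dim probe sets understate differences.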
